A study of Mus musculus with 30 samples.

Results

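The regions described here were those called with antibodies against SMC1, RAD21 and SMC3 in NIH3T3+BORIS (clone2) cells on chromosomes 1 to 19. NIH3T3 is an immortalized mouse embryonic fibroblast line, and the cells stably expressed BORIS from a CpG-free plasmid as a single clone, clone 2. Overlapping or touching regions of the 3 lists were joined, and each merged region was assigned to 1 of 7 combinations of subunits by the lists that contributed to it. This gave 123615 merged regions from 285416 listed ones. The 8 peak lists of the whole series held 624917 regions. The comparison lists came from NIH3T3+EV cells, which stably carried a control plasmid expressing beta-galactosidase and were mapped with the same 3 antibodies, and from CH12, a mouse B lymphoma line mapped for the remodeller Snf2h. CH12 was used as wild type and as a mutant edited with CAS9 to delete CTCF zinc fingers 9 to 11 on both alleles. The labels' ChIP-seq protocol gives 10 min of crosslinking in 1% formaldehyde, fragments of 200 to 600 bp and 5 μg of antibody. The lists hold no measure of BORIS expression. Each antibody was applied to 1 library per cell line, so no difference below has a replicate check and no p-value is given. Intervals are exact 95% binomial intervals of shares or order-statistic intervals of medians, and both cover counting error only.

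Cohesin is a ring-shaped complex built around a pair of long coiled-coil proteins, SMC1 and SMC3, whose ATPase heads are bridged by the kleisin subunit RAD21. It holds sister chromatids together and extrudes chromatin loops. Loop extrusion is halted mainly at sites bound by CTCF, so in mammalian cells most strong cohesin peaks lie at CTCF sites. BORIS (CTCFL) is a germ-cell relative of CTCF with a similar zinc finger array and different terminal parts. The subunits act in one ring, so antibodies against them are often read as alternative measures of the same occupancy.

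The 3 lists were of unequal length and of similar median strength. On chromosomes 1 to 19 there were 100107 SMC1, 80268 RAD21 and 105041 SMC3 regions, which covered 28.1, 22.2 and 31.0 Mb. Median widths were 222 bp for SMC1 and 228 bp for both RAD21 and SMC3. The summit is the base with the most fragments in a region, and the pileup is the number of fragments over it. The pileup was recovered as a whole number from the deposited fold and p-value of every region. Its median was 19 in each list, and it reached 242 for SMC1 and 246 for RAD21 and SMC3. The depth of the libraries is not in the lists. An estimate, the lowest background of a list divided by the width of its narrowest region, came to 8.42 fragments per kb in the SMC1 list, 7.43 in the RAD21 list and 8.24 in the SMC3 list. By this estimate RAD21 was the shallowest, and its list was the shortest.

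The background against which summits were judged was close to the same track in the 3 lists up to scale. It was expressed here as a multiple of the lowest background of its own list. At 1327 places where the RAD21 and SMC3 summits lay on the same base, it was equal within 1% at every one. For SMC1 and RAD21 it was equal within 1% at 50.9% and within 5% at 96.1% of 1217 such places. The highest value in each list was 99.96 times its lowest. The control library behind it is not given in the sources used here.

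Of the merged regions, 63299 were called with all 3 antibodies, slightly more than the other combinations together. These concordant regions made up 51.2% of all merged regions (interval 50.9 to 51.5) and 70.0% of the merged length. The majority turned when summits within 200 bp were joined in place of regions, with 47.5% concordant. Pairs of subunits accounted for 19.6% (24185 regions) and single subunits for 29.2% (36131 regions). The pairs were far from even. SMC1+SMC3 without RAD21 was called at 16041 regions (12.98%), RAD21+SMC3 without SMC1 at 5664 (4.58%) and SMC1+RAD21 without SMC3 at 2480 (2.01%). Among the single-subunit regions, 16879 were SMC3 alone (13.7%), 14389 SMC1 alone (11.6%) and 4863 RAD21 alone (3.93%).

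**Figure D1:**
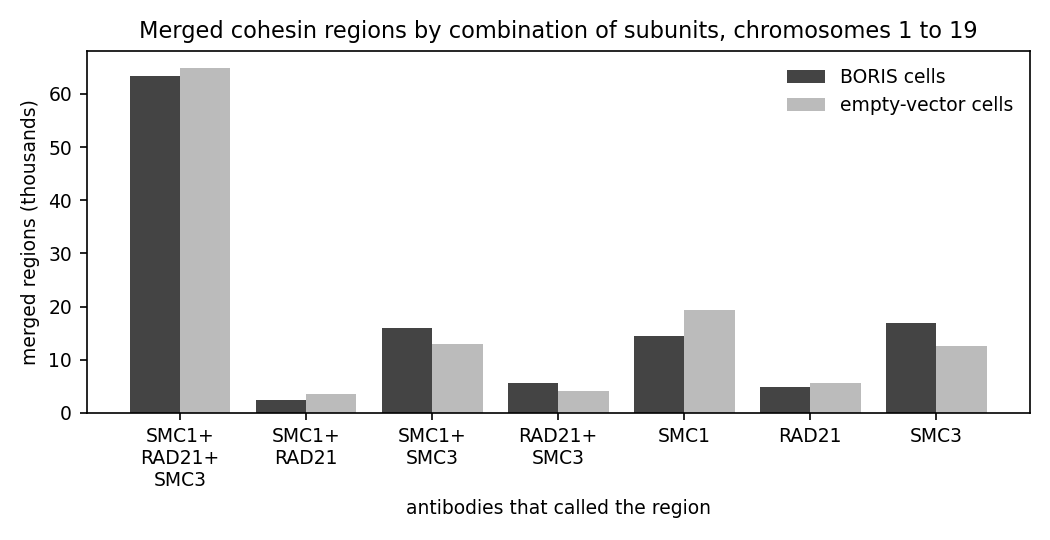
Number of merged regions (vertical axis) in each combination of antibodies (horizontal axis) in BORIS cells (dark bars) and empty-vector cells (light bars), 1 library per antibody and line. Concordant regions number 63299 and 64891, and the smallest class is SMC1+RAD21 in both lines.

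The order of the single-subunit classes changed with the lengths of the lists. When each list was shortened to 80268 regions by rank of −log10 p, the single-subunit classes became nearly equal, with 9856 SMC1, 9149 RAD21 and 9015 SMC3 regions. There were then 7511 SMC1+SMC3, 6480 RAD21+SMC3 and 4833 SMC1+RAD21 regions. SMC1+SMC3 remained the most frequent pair and SMC1+RAD21 the least frequent. With lists of equal length RAD21 alone was no longer the rarest single-subunit class, while the order of the pairs held.

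Seen from each list, RAD21 regions were the least often alone. Concordant regions took up 83.8% of the RAD21 list, 66.9% of the SMC1 list and 63.0% of the SMC3 list. RAD21 was alone at 6.06% of its regions, SMC1 at 14.4% and SMC3 at 16.1%. The longer SMC1 and SMC3 lists thus had the larger shares of regions of their own.

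In empty-vector cells the same merging gave 122913 regions, of which 52.8% (52.5 to 53.1) were concordant. SMC1+SMC3 was the most frequent pair there too (10.5%) and SMC1+RAD21 the least frequent (2.91%). The single-subunit classes stood in another order, with SMC1 alone at 15.8% and SMC3 alone at 10.2%. SMC3 alone outnumbered SMC1 alone in BORIS cells and not in empty-vector cells. The BORIS order turned with lists of equal length (9856 SMC1 alone, 9015 SMC3 alone), and with 1 library per antibody the line and the library cannot be told apart.

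Concordance followed strength closely. Each list was split into deciles (10 nearly equal parts) by −log10 p. All regions of the strongest decile of each list were concordant. In the weakest decile 24.7% of SMC1, 59.8% of RAD21 and 21.4% of SMC3 regions were concordant. RAD21 lay above the other lists in each decile except the strongest, and its distance from them was largest among weak regions. The weakest RAD21 and SMC1 deciles both had a median pileup of 10, and the weakest SMC3 decile had 11. Weak RAD21 regions thus had partners in both other, longer lists more often than weak SMC1 or SMC3 regions did.

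**Figure D2:**
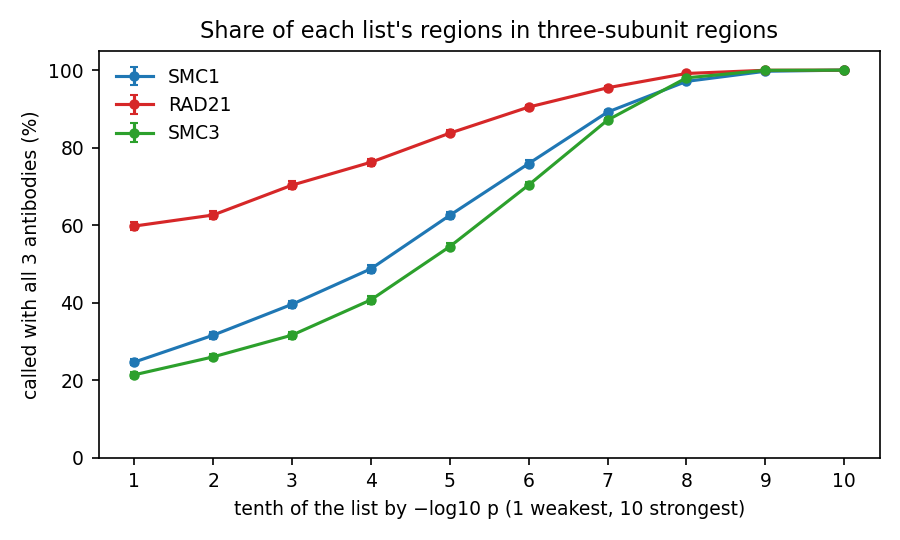
Share of regions called with all 3 antibodies (vertical axis, %) in each decile of a list by −log10 p (horizontal axis, weakest at left) for the 3 cohesin lists of BORIS cells; bars are exact 95% intervals. All 3 curves reach 100% in the strongest decile, and RAD21 starts at 59.8% against 24.7% and 21.4%.

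Among concordant regions the SMC1 pileup had a median of 25, the RAD21 pileup 22 and the SMC3 pileup 28. In the incomplete combinations every median pileup lay between 11 and 15. RAD21 alone had a median of 11 (quartiles 9 and 13), SMC1 alone 12 (10 and 15) and SMC3 alone 12 (10 and 15). No region of an incomplete combination belonged to the strongest 10% of its list. For SMC1+SMC3, the largest pair class, 16269 SMC1 regions without such a case allow a share of up to about 0.0184%. This limit is 3 divided by the number of regions and not an exact interval. At a −log10 q of at least 10 stood 4.43% of the regions of SMC1 alone, 6.19% of RAD21 alone and 6.47% of SMC3 alone, against 69.4% (SMC1), 60.8% (RAD21) and 74.3% (SMC3) of the listed regions inside concordant ones. Over whole lists this value was reached by 50.4% (SMC1), 52.8% (RAD21) and 52.1% (SMC3) of regions. Single-subunit regions thus mostly, but not only, fell below it.

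Concordant regions had a simple make-up. In 89.9% of them (56878) each list contributed exactly 1 region, and in 99.5% of these the 3 regions had at least 1 base in common. The other 10.1% joined 2 or more regions of a list. Across the 56878 simple regions percentiles of −log10 p within a list were related with Spearman rho values of 0.784 between SMC1 and RAD21, 0.855 between SMC1 and SMC3 and 0.857 between RAD21 and SMC3. These are descriptions across regions of the same libraries, which are not independent replicates. The kleisin and SMC1 ranked regions least alike, and their percentiles differed by over 30 points at 14.6% of these regions.

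SMC3 gave the highest pileup most often. Its pileup was the highest of the 3 at 49.4% of the simple regions and the lowest at 8.28%. RAD21 was the highest at 24.2% and the lowest at 44.4%. Over all 63299 concordant regions, the level of RAD21 relative to SMC1 moved with the strength of the site, as read from the SMC3 list. Where the SMC3 pileup was 15 to 29, the median RAD21 pileup was 17 and the median SMC1 pileup 19, and the median ratio of RAD21 to SMC1 was 0.857 (quartiles 0.667 and 1.12). Where the SMC3 pileup was 60 or more, the medians were 84 and 69 and the ratio was 1.18 (0.960 and 1.43). RAD21 exceeded SMC1 at 31.8% of the former regions and at 70.0% of the latter. The kleisin signal was thus relatively higher at strong cohesin sites and relatively lower at weak ones. The part of depth in this relation was not tested.

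Concordant regions were the widest. Their median width was 365 bp (363 to 367), with quartiles of 263 and 521 bp. Pairs had medians of 216 bp (SMC1+SMC3), 212 bp (SMC1+RAD21) and 196 bp (RAD21+SMC3). Single-subunit regions were narrower still, at 152 bp for SMC1, 146 bp for SMC3 and 140 bp for RAD21, only slightly wider than the narrowest regions in the lists (121 to 123 bp). Of 2316 merged regions of at least 1 kb, 2288 were concordant.

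Merging widens a region when more lists take part, so listed regions of equal pileup were compared. At a pileup of 12 the median width of a listed region was 140 bp for RAD21 alone, 142 bp for SMC3 alone and 146 bp for SMC1 alone. Inside concordant regions it was 160 bp for RAD21, 167 bp for SMC3 and 155 bp for SMC1. At a pileup of 15 the contrast was larger, with 184 against 153 bp for RAD21, 204 against 153 bp for SMC3 and 181 against 167 bp for SMC1. Without matching, listed regions inside concordant ones had medians of 253 bp (RAD21), 301 bp (SMC3) and 268 bp (SMC1). The width of a listed region thus differed less between concordant and single-subunit classes at these pileups than without matching.

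**Figure D3:**
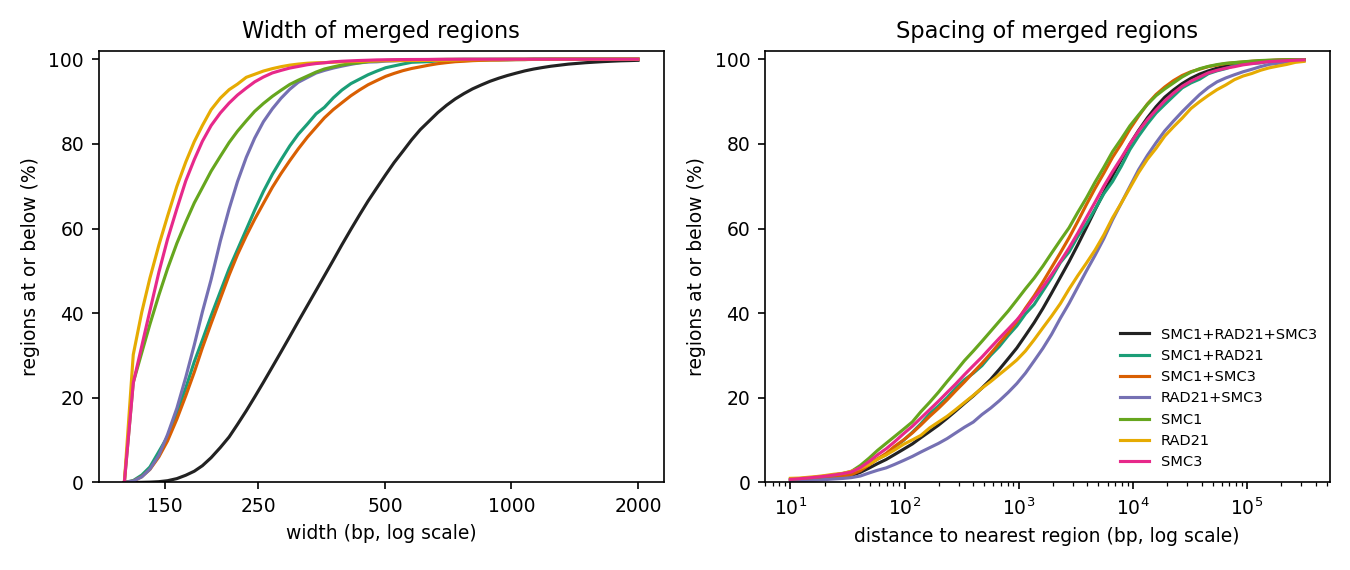
Cumulative share of merged regions (vertical axes, %) by width (left, bp, log scale) and by distance to the nearest merged region (right, bp, log scale) for the 7 combinations in BORIS cells. Concordant regions are the widest (median 365 bp), and the RAD21+SMC3 and RAD21-alone curves have the longest median spacing (3922 and 3565 bp).

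The widths of concordant regions spanned a continuum. Of these regions, 21.3% were under 250 bp, 51.0% from 250 to below 500 bp, 24.1% from 500 bp to below 1 kb, and 165 regions reached 2 kb. The median of the lowest pileup of the 3 subunits was 13 in the narrowest group and 36 from 500 bp to below 1 kb. It was 34 from 1 kb to below 2 kb and 50 in the 165 widest. Wider regions also lay closer to a neighbour, with a median distance of 3649 bp in the narrowest group and 178 bp in the widest. The widest merged region, on chromosome 9 from 3013646 to 3027317 (13672 bp), joined 11 listed regions and reached a RAD21 pileup of 246 at a fold of only 2.68, since its local background was high. High pileup and low fold thus went together in this region.

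Summits of the subunits lay close together. In concordant regions the median distance was 19 bp between SMC1 and RAD21 (18 to 19), 18 bp between SMC1 and SMC3 (17 to 18) and 18 bp between RAD21 and SMC3. Distances of at most 20 bp were found at 53.9%, 56.1% and 55.0% of regions, and distances over 100 bp at 6.30%, 5.98% and 6.19%. The signed distances had a median of 0 bp for each pair along the chromosome. The orientation of CTCF motifs was not used here. The 3 pairs of subunits thus had nearly the same median distance.

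The largest distance among the 3 summits of a region had a median of 30 bp and was at most 50 bp in 73.2% of concordant regions. It shrank as the signal rose. Where the lowest pileup of the 3 was under 15 the median was 44 bp, and where it was 60 or more the median was 16 bp. The lists thus placed cohesin at strong sites within fewer bases of each other than at weak ones.

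In regions called for a pair only, the median distance between summits was larger. The medians were 24 bp for RAD21+SMC3 (24 to 25), 29 bp for SMC1+SMC3 (28 to 30) and 34 bp for SMC1+RAD21 (32 to 36). Summits over 100 bp apart made up 4.20% of RAD21+SMC3 regions, 10.5% of SMC1+SMC3 regions and 12.8% of SMC1+RAD21 regions. For RAD21+SMC3 this share was below the 6.19% of concordant regions. RAD21+SMC3 summits were thus the closest among the pairs, in regions that were also the narrowest (196 bp). Neither order held with lists of equal length, where RAD21+SMC3 and SMC1+SMC3 summits both had a median distance of 23 bp and the regions were 211 and 207 bp wide. The median pileups of the first and the second subunit were 13 and 14 in RAD21+SMC3 regions, 15 and 14 in SMC1+SMC3 regions and 14 and 12 in SMC1+RAD21 regions.

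**Figure D4:**
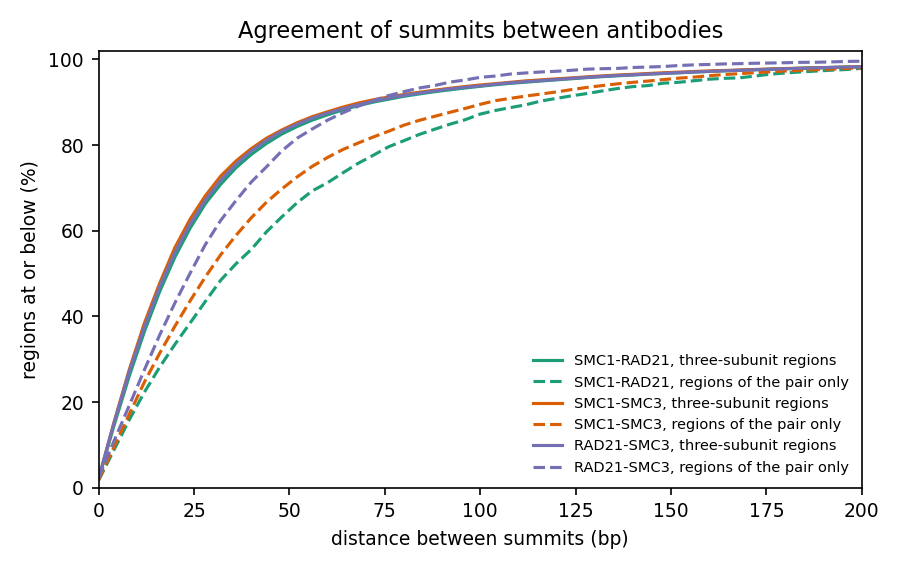
Cumulative share of regions (vertical axis, %) by distance between the summits of 2 subunits (horizontal axis, bp), for each pair in concordant regions (solid) and in regions called for that pair only (dashed). The solid curves lie close together, with medians of 18 to 19 bp, and the dashed ones have medians of 24 bp (RAD21-SMC3), 29 bp (SMC1-SMC3) and 34 bp (SMC1-RAD21).

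Along the chromosomes, merged regions had their nearest neighbour at a median of 2304 bp, edge to edge. Combinations with RAD21 and without SMC1 were the most isolated. The median distance was 3922 bp for RAD21+SMC3 (3733 to 4211) and 3565 bp for RAD21 alone (3256 to 3846), against 2495 bp for concordant regions (2453 to 2540) and 1519 bp for SMC1 alone (1454 to 1589). A neighbour was more than 50 kb away at 7.98% of RAD21-alone and 6.003% of RAD21+SMC3 regions, and at 1.51% of SMC1-alone regions. The same 2 combinations were the most isolated under each alternative for which spacing was recomputed (a −log10 q minimum, equal list lengths, joining across 500 bp, added sex chromosomes). Concordant regions lay further from a neighbour than the pooled other regions (2094 bp). This order turned on joining across 500 bp, with 3844 bp against 4205 bp. With only regions of −log10 q 10 or more kept, the intervals overlapped. The medians were then 5486 bp (5376 to 5604) for concordant and 5615.5 bp (5502 to 5743) for other regions.

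Without matching for pileup, the shared background was low at both isolated combinations, but not only there. Background at the summit relative to the lowest of the list had a median of 1.55 at RAD21 alone and 1.60 at RAD21+SMC3, against 1.85 at SMC1 alone and 2.03 to 2.05 in concordant regions. It was within 1% of the lowest value at 16.2% of RAD21-alone regions and at 3.49% of SMC1-alone regions. SMC3 alone had a similarly low median of 1.63, with 10.4% at the lowest value, and yet a nearest neighbour at a median of 2043 bp. Among listed regions with a pileup of 12, the median was 1.80 at SMC1 alone and 1.65 at RAD21 alone. It was then 1.63 (RAD21) and 1.47 (SMC3) at RAD21+SMC3. In concordant regions of this pileup it was 1.46 (SMC1), 1.65 (RAD21) and 1.63 (SMC3). At this pileup RAD21 alone thus had the same median background as RAD21 in concordant regions, and SMC1 alone had a higher one. The part of background in spacing was not tested.

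Incomplete regions lay at a range of distances from concordant ones. The nearest concordant region was at a median of 4921 bp from SMC1 alone, 4820 bp from SMC3 alone and 7922 bp from RAD21 alone. Concordant regions themselves were at a median of 5501 bp from the next concordant region. A region of the missing list lay within 100 bp of only 2.62% of SMC1+SMC3, 3.04% of RAD21+SMC3 and 5.56% of SMC1+RAD21 regions. Within 1 kb these shares were 23.8%, 19.8% and 29.7%, and 34.8% of SMC1-alone regions had a SMC3 region within 1 kb.

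Some classes had neighbours of their own kind. The nearest neighbour of a SMC1-alone region was another one in 16.1% of cases (15.5 to 16.7), against 11.6% of all merged regions. The same held for SMC1+SMC3, with 14.5% (14.0 to 15.1) against 12.98%. For RAD21 alone these values were 6.87% (6.17 to 7.62) and 3.93%, and for SMC3 alone 14.0% (13.5 to 14.5) and 13.7%. The nearest neighbour of a concordant region was concordant in 51.7% of cases, close to the 51.2% of all regions. SMC1-alone and RAD21-alone regions thus had a neighbour of their own class more often than their overall share, and the SMC3-alone interval included its share.

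The share of concordant regions differed between chromosomes. It was lowest on chromosome 14, at 46.4% of 3593 regions (44.8 to 48.1), and highest on chromosome 15, at 54.4% of 6315 (53.2 to 55.6). In empty-vector cells chromosome 14 had 52.6% of 4664 regions (51.1 to 54.0) and chromosome 15 had 54.7% (53.5 to 56.0). Chromosome 14 also had the lowest density in BORIS cells, 28.7 merged regions per Mb. Over 19 chromosomes the share had a Spearman rho of 0.775 with the median background and of 0.742 with the share in empty-vector cells, as descriptions of chromosomes read from the same libraries. With the number of merged regions per Mb the rho was 0.605. Chromosomes of lower background thus tended to have lower shares of concordant regions. There were exceptions, such as chromosome 8 with a median background of 2.05 and a share of 48.9%.

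The lists of empty-vector cells, which the classes did not use, give another set of calls at the same sites. The background behind both sets was similar, within 5% at 87.0% (RAD21) to 87.9% (SMC3) of places with the same summit base. Over all merged regions 68.4% overlapped an empty-vector SMC1 region, 57.8% a RAD21 region and 66.7% a SMC3 region by at least 1 bp, and 51.1% overlapped all 3. Concordant regions were found in all 3 empty-vector lists in 81.2% of cases (80.9 to 81.5) and in none in 5.60%, against 22.2% over all merged regions. All combinations of pairs and single subunits lay below the 51.1% of all regions, from 40.8% at RAD21+SMC3 to 10.6% at SMC1 alone. These shares were not matched for width or pileup. Among concordant regions, all 3 empty-vector lists called 53.7% of those under 250 bp wide. They called 56.7% of those with a lowest pileup under 15. Concordance in BORIS cells thus went with calls in the other line, and so did width and pileup within concordant regions.

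Pairs differed in whether the missing subunit was called in the other line. At RAD21+SMC3 regions SMC1 was called in empty-vector cells in 56.7% of cases (55.4 to 58.0), nearly as often as RAD21 (58.7%) and SMC3 (63.5%). At SMC1+SMC3 regions RAD21 was called in only 34.3% (33.5 to 35.0), against 58.1% for SMC1 and 53.8% for SMC3. At SMC1+RAD21 regions SMC3 was called in 55.9%, between SMC1 (65.8%) and RAD21 (47.3%). Each missing subunit was thus called less often than over all merged regions (SMC1 68.4%, RAD21 57.8%, SMC3 66.7%). The same held for the called subunits of each pair, except RAD21 at RAD21+SMC3 regions (58.7%). A share below that of all regions was therefore not particular to the missing subunit. RAD21 at SMC1+SMC3 regions was the least often called.

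**Figure D5:**
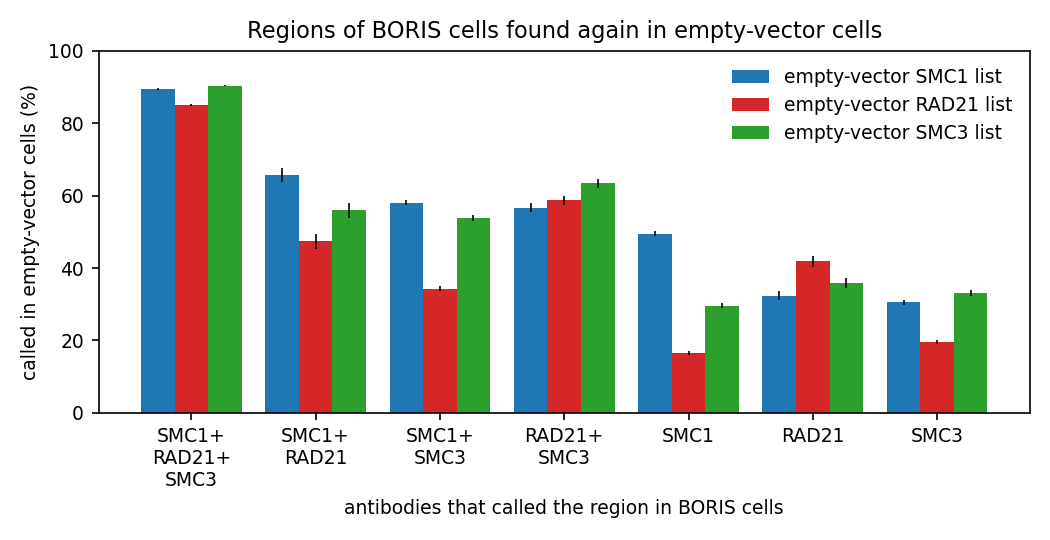
Share of the regions of each combination in BORIS cells (horizontal axis) that overlap a region of the empty-vector SMC1, RAD21 or SMC3 list (vertical axis, %); lines on the bars are exact 95% intervals. RAD21 is the lowest bar except at RAD21+SMC3 and at RAD21 alone, where it is highest at 41.8%.

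Each single-subunit class was called in the other line most often with its own antibody, and less often than that antibody's share over all merged regions. SMC1 alone was called with the SMC1 antibody in empty-vector cells in 49.5% of cases, with SMC3 in 29.6% and with RAD21 in 16.5%. RAD21 alone was called there with RAD21 in 41.8%, SMC3 in 35.8% and SMC1 in 32.4%. SMC3 alone was called with SMC3 in 33.1% and with SMC1 in 30.5%, and in 53.7% of cases (52.9 to 54.4) with none, the highest share of the 7 combinations. At least 1 empty-vector list called 46.3% of SMC3-alone, 57.0% of SMC1-alone and 59.2% of RAD21-alone regions. Classes formed anew after the BORIS lists were limited to a −log10 q of 10 or more had 74.5%, 88.0% and 92.9%. Those are other sets of regions (8559, 6725 and 2682), since only 1092, 638 and 301 of the original single-subunit regions reach that value. The former and the latter shares are therefore not a change within a class. Exactly the same combination was found in empty-vector cells at 22.7% of SMC1-alone, 12.6% of RAD21-alone and 9.78% of SMC3-alone regions, against 48.7% over all merged regions and 81.2% of concordant ones.

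Some classes also differed at matched pileup. Among regions whose highest pileup was 15 to 19, at least 1 empty-vector list called 86.5% of concordant regions (85.7 to 87.2) and 52.5% of SMC3-alone regions (50.8 to 54.1). SMC1 alone stood at 69.0% and RAD21 alone at 76.2% in this range. Over all pileups 77.8% of merged regions were called at least once. At 20 to 29 the shares were 91.8% for concordant regions, 92.2% (88.9 to 94.7) for SMC1+RAD21 and 90.5% (83.96 to 94.98) for RAD21 alone, with no detectable difference between them in this measure. Calls in all 3 empty-vector lists did differ there, at 72.0% (71.4 to 72.7) of concordant, 46.8% (41.6 to 52.0) of SMC1+RAD21 and 40.5% (31.8 to 49.6) of RAD21-alone regions. At least 1 list called 60.4% (56.7 to 64.1) of SMC3-alone regions there, the lowest share of the 7 combinations in both ranges.

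Snf2h, the ATPase of ISWI remodellers that space nucleosomes next to CTCF sites, was called in CH12 cells at few of these fibroblast regions. Over all merged regions 4.45% overlapped a wild-type and 6.12% a mutant Snf2h region. For concordant regions the shares were 6.91% (6.71 to 7.11) and 9.01% (8.79 to 9.24). For the other combinations they were 1.51% to 2.39% in wild type and 1.93% to 4.21% in the mutant. Among concordant regions with a lowest pileup of 60 or more the shares were 16.8% and 20.6%. At a highest pileup of 20 to 29 the mutant list overlapped 5.79% of concordant regions and 5.47% of SMC1-alone regions (4.00 to 7.27), so no difference between these classes was detectable at this pileup. RAD21+SMC3 regions had 3.19% (2.17 to 4.53) in this range.

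Single regions illustrate the classes. Each class is shown by its strongest members, ranked by the lower or lowest percentile over the calling lists. Only members up to 3 kb wide whose missing lists had nothing within 1 kb were eligible. Coordinates are those of the lists, counted from 1, whose build is mm9 as far as the sources show, and no gene is assigned, since no annotation of that build was used here.

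The strongest concordant region lay on chromosome 19 from 43698323 to 43698998. It had pileups of 201 (SMC1), 199 (RAD21) and 224 (SMC3), the folds were 85.0, 89.6 and 95.01, and the summits lay at 43698627, 43698627 and 43698624. The next lay on chromosome 4 from 135625771 to 135626461, with pileups of 188, 208 and 211 and summits at 135626038, 135626050 and 135626039. All 3 antibodies called both regions in empty-vector cells as well. SMC3 had the highest pileup in each, and the summits lay closer together in the first region than in the second.

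The eligible pair regions of highest rank were not those of highest pileup, which reached 120 for SMC1 and 115 for RAD21 in SMC1+RAD21 regions. SMC1+SMC3 was strongest on chromosome 2 from 121257627 to 121257869 (pileups of 36 and 39) and on chromosome 4 from 132768514 to 132768823 (41 and 45). RAD21+SMC3 was strongest on chromosome 13 from 62227802 to 62228067 (33 and 33) and on chromosome 2 from 140326797 to 140327083 (34 and 31). SMC1+RAD21 was strongest on chromosome 8 from 10053545 to 10053728 (20 and 23) and on chromosome 15 from 63047125 to 63047343 (19 and 20). In empty-vector cells all 3 antibodies called each of these regions. The missing subunit was thus called in the other line at the strongest examples of each pair.

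Single-subunit regions differed more in the other line. SMC1 alone was strongest on chromosome 1 from 62814181 to 62814645 (pileup 43), called with all 3 antibodies in empty-vector cells, and on chromosome 11 from 107645526 to 107646745 (pileup 34), a region of 1220 bp called there with SMC1 only. RAD21 alone was strongest on chromosome 15 from 82082099 to 82082344 (pileup 47, fold 17.3), called there with RAD21 and SMC3, and on chromosome 14 from 19043417 to 19043631 (pileup 25), called there with all 3 antibodies. SMC3 alone was strongest on chromosome 7 from 117980085 to 117980280 (pileup 26) and on chromosome 8 from 122052140 to 122052323 (pileup 31), and both were called in empty-vector cells with SMC3 only. Both SMC3 regions and the SMC1 region on chromosome 11 thus had the same single antibody in both lines.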

How the data were processed

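The authors deposited 1 peak list per library in the narrowPeak layout, without a header. The submitters' processing notes name Bowtie2, Bowtie, SAMtools, MACS2 and deepTools 3.5.0 and the builds mm9 and hg19, without roles. Chromosome 1 coordinates reach 197171778, past the last GRCm38 gene end (195291439). Peak-calling settings, control and filters are not given in the sources used here. The score deposited by the authors is a rescaled, truncated −log10 q and was not used. The fold deposited is the ratio of summit pileup to local background, with 1 added to each. The −log10 p and −log10 q deposited belong to the summit, and the lowest −log10 q is 1.30 to 1.32. The remaining column deposited gives the summit position.

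Lists were read with pandas 2.3.3 and merged on chromosomes 1 to 19, which left out 2100 SMC1, 1967 RAD21 and 2694 SMC3 regions on X and Y. Pileup and background were solved from (pileup + 1)/(background + 1) = fold and a Poisson tail, and matched a whole number within 0.001 in −log10 p at 100.0% of regions. Scripts were tested on simulated lists. Alternatives tried were a stricter −log10 q (10 or more), equal list lengths, joining across 500 bp, summit clusters within 200 bp, no missing-list region within 1 kb, the highest summit of each list, and added sex chromosomes. Percentiles rank −log10 p within a list, and singly named regions were the 2 with the highest lowest percentile and the widest of each class. Classes, naming rule and alternatives were chosen with earlier results of these data known. Of 30 samples, the 8 with a peak list were used and the others were not analysed here. Regions of 1 library are not replicates.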

Additional observations from a re-analysis of the deposited data

How the results depend on the processing

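Absence from a list does not show absence of a subunit, and the part of depth in missing calls was not tested. With only regions of −log10 q 10 or more kept, which leaves fewer regions, there were 34487 concordant regions (53.3% of merged ones), 973 SMC1+RAD21, 7534 SMC1+SMC3, 3709 RAD21+SMC3, 6725 SMC1, 2682 RAD21 and 8559 SMC3 regions. The median width was then 425 bp for concordant and 239 bp for the other regions, the median spacing 5486 and 5615.5 bp, and the summit distances 14 bp (SMC1-RAD21), 13 bp (SMC1-SMC3) and 13 bp (RAD21-SMC3).

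With equal list lengths there were 4833 SMC1+RAD21, 7511 SMC1+SMC3, 9149 RAD21 and 9015 SMC3 regions, and 54.5% of regions were concordant. Widths were 378 and 181 bp, spacing 3215 and 3135 bp, and summit distances 17, 16 and 17 bp. Joining across 500 bp gave 56.5% concordant regions, widths of 395 and 171 bp and spacing of 3844 and 4205 bp, which turned the order of the last pair. Summit clusters gave 3944 SMC1+RAD21 regions and 47.5% concordant clusters. With no region of a missing list within 1 kb there were 9062 SMC1 and 10933 SMC3 regions, and 60.1% were concordant, as only incomplete regions can be left out. The causes of the other changes were not tested. Of the class counts, the concordant share and the widths, spacing and summit distances of concordant and pooled other regions, 39 values stayed within 1.5 times (counts) or their interval (others) and 37 moved. Of the values for single classes, pairs and empty-vector calls, 36 stayed and 52 moved. Adding X and Y and taking the highest summit of each list moved none of them. The shares called in empty-vector cells were recomputed under settings added after the data were seen, and the share for SMC3 alone remained the lowest of the 7 in each of them. No paired test between lines was run, and each antibody has 1 library per line.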

Other observations

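The background of the cohesin lists was also similar between lines, though less closely than between antibodies in BORIS cells. The 5th and 95th percentiles of the ratio between lines were 0.951 and 1.16 for RAD21 and 0.951 and 1.19 for SMC3. Where the summits of the BORIS and empty-vector RAD21 lists fell on the same base (1399 places), the relative backgrounds were equal within 1% at 48.2% and within 5% at 87.0%, with a median ratio of 1.00. For SMC3 the shares were 47.4% and 87.9% of 1491 places, and for SMC1 47.1% and 87.3% of 1417.

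Runs of concordant regions without any incomplete region between them numbered 30487 and had a mean length of 2.08 regions. The longest, chosen after its value was seen, held 22 concordant regions over 278.8 kb of chromosome 6, from 84987708 to 85266534. The widest SMC1-alone region lay on chromosome 11 from 116928405 to 116929634 (1230 bp, pileup 29), and the widest RAD21-alone region on chromosome 6 from 124864573 to 124866361 (1789 bp, pileup 27). In empty-vector cells each was called with the same single antibody, while the widest SMC3-alone region (988 bp, chromosome 15) was called there with SMC1 and SMC3. The widest SMC1+SMC3 region, on chromosome 10 from 119795202 to 119796822 (1621 bp), was also called with SMC1 and SMC3 and not with RAD21 there. The widest SMC1+RAD21 region (1104 bp, chromosome 12) was called there with all 3 antibodies, and the widest RAD21+SMC3 region (947 bp, chromosome 11) with SMC1 and SMC3.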
